A study of Mus musculus with 4 samples.

Results

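Cytotoxic granule and effector genes were examined in sorted splenic CD4 T cells of Rag-/- mice with colitis. The set holds 10 genes chosen by symbol, 4 granzymes (Gzma, Gzmb, Gzmk, Gzmm), perforin (Prf1), Nkg7, Ctsw, Fasl, Ccl5 and Crtam, and all 10 were found among the 16230 genes of the table. Colitis had been induced by injecting naive CD4 T cells, and the spleens were taken 8 weeks later. The donor cells came either from CD4creERafl/fl mice, in which a Cre recombinase driven from Cd4 is meant to remove loxP-flanked Esr1 (estrogen receptor α) in T cells (2 libraries), or from ERafl/fl mice, which carry the flanked alleles without Cre (2 libraries). Recipients of both groups were Rag-/-, so they lacked T and B cells of their own but kept natural killer (NK) and myeloid cells. The labels give no age or sex of the mice, nor whether the 2 libraries sharing a genotype represent different animals; their spread is possibly technical.

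Killer lymphocytes store granzymes, which are serine proteases, together with the pore-forming protein perforin in secretory granules that carry lysosomal proteins. On contact with a target the granules are released, perforin opens the way, and granzymes start cell death inside the target, while Fas ligand triggers death through a receptor on the target's surface. NK cells and CD8 T cells are the classical users of this machinery, and a part of the CD4 T cells acquires it in chronic inflammation.

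Levels are in FPKM, for which the authors divided fragments by transcript length and library depth. Low values fall on multiples of a step, from which depth was estimated as 500000 and 557000 fragments for libraries 1 and 2 labelled CD4creERafl/fl and 696000 and 662000 in ERafl/fl libraries 1 and 2. On a transcript of 1 kilobase, 1 fragment was therefore worth 1.44 to 2 FPKM. The level of Esr1 did not check the labels: it was 0 and 1.96 FPKM in the libraries labelled CD4creERafl/fl, against 0.23 and 0 FPKM in the ERafl/fl libraries. FPKM per gene cannot tell transcripts with the deletion from intact ones.

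The sorted cells carried transcripts of other cell types, in unequal amounts. The summed level of 20 T cell markers was 413 to 457 FPKM in the libraries labelled CD4creERafl/fl and 1575 to 2015 FPKM in the ERafl/fl libraries, with all 20 lower and without overlap, and none at 0 in any library. The summed level of 15 macrophage and monocyte markers was 2542 to 3033 FPKM in the libraries labelled CD4creERafl/fl and 104 to 450 FPKM in the ERafl/fl libraries, with all 15 higher and without overlap; 4 of them were at 0 in ERafl/fl library 1. Other lists of 8 markers each had medians above 0 too. For dendritic cell markers that median difference in log2(FPKM + 1) was 2.38, and 5 were higher and 1 lower without overlap. Of the neutrophil markers, 5 were higher without overlap, and their summed level was 5621 to 7511 FPKM in the libraries labelled CD4creERafl/fl and 2018 to 4191 FPKM in the ERafl/fl libraries. The erythroid markers had a median of 1.80, with 1 higher without overlap and 7 overlapping. Their summed level was 4637 to 5488 FPKM in the libraries labelled CD4creERafl/fl, against 189 and 7132 FPKM in ERafl/fl libraries 1 and 2. The highest sum was thus in ERafl/fl library 2. Of all genes tested, 23.2% were higher and 25.7% lower without overlap. The part of these differences in the results below was not tested. In such bulk samples, fewer cells of a type and less RNA per cell cannot be told apart.

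9 of the 10 effector genes had a lower mean of log2(FPKM + 1) in the libraries labelled CD4creERafl/fl, and Gzma had a higher one. For 7 genes both libraries labelled CD4creERafl/fl lay below both ERafl/fl libraries, and for Gzma both lay above. Gzmm and Prf1 overlapped between the groups. Among all 12896 genes with a mean of at least 1 FPKM, 53.6% had a lower and 46.4% a higher mean, 25.7% were lower without overlap and 23.2% were higher without overlap. 9 of the 10 genes reached that mean, and Gzmm did not. None of the 9 passed limma's test at a Benjamini-Hochberg adjusted p under 0.05 over all genes, a threshold that 0.0155% of all genes passed as higher and 0.0388% as lower. At an unadjusted p under 0.05, 1 of the 9 was higher and 6 were lower, where 9.10% and 6.80% of all genes were. The median log2 fold change over all 10 genes, libraries labelled CD4creERafl/fl minus ERafl/fl on the log2(FPKM + 1) scale, was -1.91, and it was -0.07 over all genes tested.

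**Figure D1:**
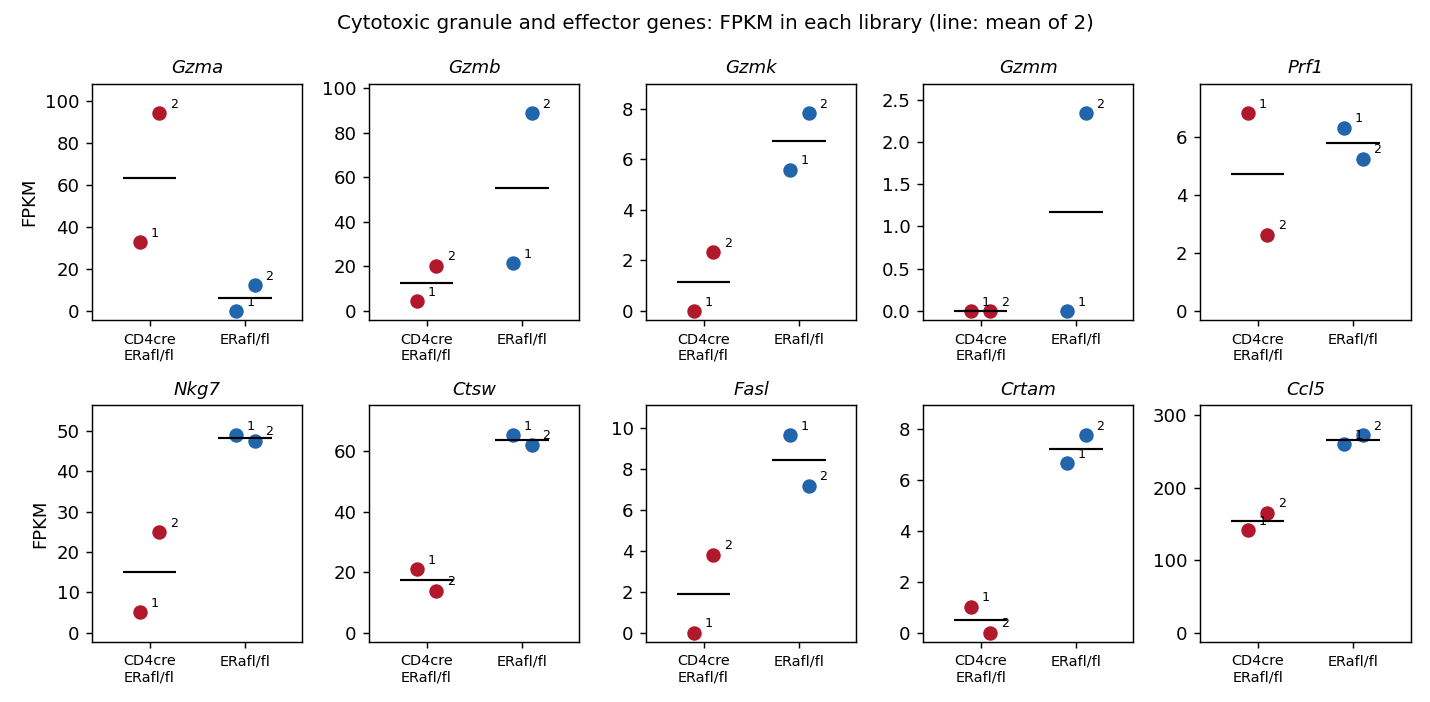
FPKM of the 10 effector genes in each library, with the libraries labelled CD4creERafl/fl in red on the left, the ERafl/fl libraries in blue on the right, library numbers beside the points and a line at the mean of 2. Gzma was at 32.7 and 94.3 FPKM in the libraries labelled CD4creERafl/fl, against 0 and 12.3 FPKM in the ERafl/fl libraries, while 7 other genes lay lower without overlap.

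Granzymes A and K are trypsin-like proteases, and their genes are neighbours on chromosome 13 of GRCm38, which has the coordinates of mm10. Gzma (NCBI gene 14938) spans bases 113093825 to 113100981 and Gzmk (NCBI gene 14945) bases 113171608 to 113225908, both on the minus strand, with 70626 bases between them. Granzyme B cuts after aspartate and activates caspases; Gzmb (NCBI gene 14939) lies on chromosome 14, bases 56258838 to 56262260, minus strand. These promoters are shown because the neighbours Gzma and Gzmk had differences of opposite sign and Gzmb was the most abundant granzyme in the ERafl/fl libraries. Each run is the 250 bases before the RefSeq start site on GRCm38.p6, read 5′ to 3′ on the minus strand, with matches to any of 5 motifs in capitals. The windows are chr13:113100982-113101231 for Gzma, chr13:113180966-113181215 for Gzmk and chr14:56262335-56262584 for Gzmb. The Gzmk window lies inside the GENCODE span given above, because the RefSeq and GENCODE starts of Gzmk differ. It is upstream of the RefSeq start only.
Gzma: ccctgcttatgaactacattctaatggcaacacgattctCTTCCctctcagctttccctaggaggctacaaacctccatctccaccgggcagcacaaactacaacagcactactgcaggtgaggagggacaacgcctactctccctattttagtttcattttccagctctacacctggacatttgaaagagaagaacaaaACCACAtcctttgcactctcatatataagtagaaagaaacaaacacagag
Gzmk: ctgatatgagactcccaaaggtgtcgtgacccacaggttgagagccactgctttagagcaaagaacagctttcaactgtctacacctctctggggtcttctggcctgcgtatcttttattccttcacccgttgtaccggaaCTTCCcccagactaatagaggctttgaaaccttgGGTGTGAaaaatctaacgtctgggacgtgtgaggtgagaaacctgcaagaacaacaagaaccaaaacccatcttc
Gzmb: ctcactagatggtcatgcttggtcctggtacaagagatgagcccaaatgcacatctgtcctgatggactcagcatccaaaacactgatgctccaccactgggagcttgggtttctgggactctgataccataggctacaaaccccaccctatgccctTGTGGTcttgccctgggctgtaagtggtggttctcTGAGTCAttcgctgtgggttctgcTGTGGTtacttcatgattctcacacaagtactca

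The motifs were searched on both strands and allowed to overlap: T-box (GGTGTGA, the family of T-bet and Eomes), Runx (TGTGGT), ETS (GGAAG), AP-1 (TGANTCA) and STAT (TTCNNNGAA). Gzma held 1 ETS match, beginning 211 bases before the start, and 1 Runx match at 50 bases. Gzmk held 1 ETS match at 109 bases and 1 T-box match at 75 bases. Gzmb held Runx matches at 93 and 34 bases and an AP-1 match at 58 bases. Of 32851 promoter windows of the same length in the RefSeq table, 3.33% held the T-box letters, 14.0% Runx, 64.1% ETS, 6.75% AP-1 and 7.02% STAT. RefSeq promoter entries matched 7 of the 10 genes in 8 windows, of which 3 held T-box, 5 Runx, 6 ETS, 1 AP-1 and 2 STAT letters. A match describes letters only.

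Gzma was the one effector gene with higher values in the libraries labelled CD4creERafl/fl. It had 32.7 and 94.3 FPKM in the libraries labelled CD4creERafl/fl, against 0 and 12.3 FPKM in the ERafl/fl libraries. With an annotated transcript of 878 bases, Gzma rested on some 14.3 and 46.1 fragments in the libraries labelled CD4creERafl/fl, against 0 and 7.15 in the ERafl/fl libraries. The groups did not overlap, but each differed within itself: the second library of the pair was the higher in both. A library at 0 can hide up to 3 fragments, worth 4.91 to 6.83 FPKM for Gzma, and this limit covers counting error only. Gzma had a log2 fold change of 3.96 ± 1.25 (SE), with an adjusted p of 0.236 in limma. It was 2.09 without ERafl/fl library 1 and 5.82 without ERafl/fl library 2. Gzma stood at the 87.1 and 95.3 percentile of all genes in the libraries labelled CD4creERafl/fl, against the 70.9 percentile in ERafl/fl library 2.

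Markers of NK cells, which make granzyme A, were higher in the same libraries as Gzma. The summed level of 16 NK and group 1 innate lymphocyte markers was 463 to 490.1 FPKM in the libraries labelled CD4creERafl/fl and 36.8 to 107 FPKM in the ERafl/fl libraries. Of the 16, 13 were higher without overlap and 0 lower, the median log2 fold change was 1.82, and 6 were at 0 in both ERafl/fl libraries. Of all genes tested, 23.2% were higher and 25.7% lower without overlap. One of the 13, Styk1, was not tested and corresponds to about 1 fragment in each of the 4 libraries. A median above 0 was not particular to the NK list, since the macrophage list had one of 3.88 and the dendritic cell list one of 2.38. Ncr1, the NK activating receptor NKp46, had 8.25 and 19.8 FPKM in the libraries labelled CD4creERafl/fl and was listed at 0 in both ERafl/fl libraries. Klre1, a lectin-like NK receptor, had 4.41 and 5.94 FPKM in the libraries labelled CD4creERafl/fl and was also listed at 0 in both ERafl/fl libraries. Its values above 0 rest on an estimated 2.85 and 4.29 fragments, near the 3 fragments that a library at 0 can hide. The 6 at 0 in both ERafl/fl libraries were Ncr1, Klre1, Klra4, Klra8, Klra9 and Sh2d1b2. The last of these was at 0 in all 4 libraries, and Klra genes have close relatives, so their values are uncertain. The most abundant of the 16 in every library was Tyrobp, a signalling adaptor that myeloid cells also make, at 371 and 327 FPKM in the libraries labelled CD4creERafl/fl, against 12.8 and 75.4 FPKM in the ERafl/fl libraries. Tyrobp thus made up most of the summed level in both libraries labelled CD4creERafl/fl and in ERafl/fl library 2. CD8 T cell genes were present in all libraries, with a summed level of Cd8a and Cd8b1 of 63.4 to 156 FPKM in the libraries labelled CD4creERafl/fl and 43.7 to 78.8 FPKM in the ERafl/fl libraries. Cd8b1 was the larger part of that sum in every library. It shares sequence with transcripts of 21 other genes, so its value is uncertain. The part of NK cells or CD8 T cells in the level of Gzma was not tested.

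Gzmb had 4.26 and 20.4 FPKM in the libraries labelled CD4creERafl/fl, against 21.4 and 88.8 FPKM in the ERafl/fl libraries. The groups did not overlap, but library 2 of the CD4creERafl/fl label and ERafl/fl library 1 were nearly equal. The means were 12.3 ± 11.4 FPKM in the libraries labelled CD4creERafl/fl and 55.1 ± 47.7 FPKM in the ERafl/fl libraries (SD, n = 2 each). For Gzmb the log2 fold change was -2.08 ± 0.91 (SE), with an adjusted p of 0.345 in limma, and it was -1.07 without library 1 labelled CD4creERafl/fl. The lowest value rests on an estimated 3.06 fragments and the highest on 84.5.

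The order of the granzymes differed between the groups in these libraries. Gzma exceeded Gzmb by a ratio of 7.66 and 4.62 in the libraries labelled CD4creERafl/fl, against a ratio of 0.14 in ERafl/fl library 2, while Gzma was listed at 0 in ERafl/fl library 1. Gzma made up 88.5% and 80.6% of the summed FPKM of the 4 granzymes in the libraries labelled CD4creERafl/fl, against 0% and 11.1% in the ERafl/fl libraries. The summed granzyme level itself was 36.9 and 117 FPKM in the libraries labelled CD4creERafl/fl, against 27.0 and 111 FPKM in the ERafl/fl libraries, and so overlapped. With 2 libraries a group, an exact two-sided permutation test of a single value cannot give a p under 0.333, so none is given.

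Gzmk, a granzyme of memory T cells, was listed at 0 and had 2.33 FPKM in the libraries labelled CD4creERafl/fl, against 5.60 and 7.83 FPKM in the ERafl/fl libraries. Counted in units of 1 fragment per library, these values stood at 0 and 1 in the libraries labelled CD4creERafl/fl, against 3 and 3.99 in the ERafl/fl libraries, relative to the lowest value above 0. The values are thus whole multiples, and may rest on as few as 1, 3 and 4 fragments. Gzmk had a log2 fold change of -2.06 ± 0.72 (SE), with an adjusted p of 0.265 in limma, and of -1.20 without library 1 labelled CD4creERafl/fl. Gzmm, granzyme M (NCBI gene 16904; chromosome 10, 79689020 to 79695261, plus strand), was listed at 0 in both libraries labelled CD4creERafl/fl and in ERafl/fl library 1, and had 2.34 FPKM in ERafl/fl library 2. That value corresponds to an estimated 1.99 fragments, so Gzmm was not detectable at this depth in 3 of 4 libraries.

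Prf1, which encodes perforin (NCBI gene 18646; chromosome 10, 61297833 to 61304680, plus strand), was low in all libraries and did not follow the other effector genes. It had 6.81 and 2.62 FPKM in the libraries labelled CD4creERafl/fl, against 6.31 and 5.25 FPKM in the ERafl/fl libraries. Both the highest and the lowest value were in the libraries labelled CD4creERafl/fl, so the groups overlapped. Its log2 fold change was -0.35 ± 0.54 (SE), with an adjusted p of 0.785 in limma, and its sign turned to 0.21 without library 2 labelled CD4creERafl/fl. The estimates behind these values were 3.61 to 10.9 fragments, which are not whole numbers and so are uncertain.

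Nkg7, a granule membrane protein that aids degranulation (NCBI gene 72310; chromosome 7, 43437073 to 43438249, plus strand), had 5.05 and 25.0 FPKM in the libraries labelled CD4creERafl/fl, against 49.0 and 47.6 FPKM in the ERafl/fl libraries. The ERafl/fl libraries were close to each other and both lay above the other group, within which library 1 was the lower. The means were 15.0 ± 14.1 FPKM in the libraries labelled CD4creERafl/fl and 48.3 ± 1.0 FPKM in the ERafl/fl libraries (SD, n = 2 each), and the log2 fold change was -1.98 ± 0.70 (SE, adjusted p = 0.272 in limma). Without library 1 labelled CD4creERafl/fl it was -0.93.

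Ctsw, cathepsin W, a cysteine protease of killer lymphocytes (NCBI gene 13041; chromosome 19, 5465043 to 5468507, minus strand), came closest to the threshold among the 10. It had 21.0 and 13.8 FPKM in the libraries labelled CD4creERafl/fl, against 65.4 and 62.2 FPKM in the ERafl/fl libraries. Both groups were tight beside the gap between them, with means of 17.4 ± 5.07 FPKM in the libraries labelled CD4creERafl/fl and 63.8 ± 2.22 FPKM in the ERafl/fl libraries (SD, n = 2 each). Ctsw had a log2 fold change of -1.84 ± 0.34 (SE), with an adjusted p of 0.136 in limma and of 0.0545 with voom weights on estimated fragments. The voom fit, added after the data were seen, used fragments estimated from FPKM and transcript length. It covered 7514 genes with 1 listed transcript of at least 500 bases and a mean of at least 3 estimated fragments. Of these it called 1.97% higher and 0.719% lower. It tested 6 of the 10 effector genes and called none.

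Fasl, the ligand of the death receptor Fas (NCBI gene 14103; chromosome 1, 161780689 to 161788495, minus strand), was listed at 0 and had 3.81 FPKM in the libraries labelled CD4creERafl/fl, against 9.65 and 7.18 FPKM in the ERafl/fl libraries. The groups did not overlap, on an estimated 0 and 4.11 fragments in the libraries labelled CD4creERafl/fl, against 13.0 and 9.21 in the ERafl/fl libraries. Fasl had a log2 fold change of -2.09 ± 0.82 (SE, adjusted p = 0.308 in limma), and of -0.96 without library 1 labelled CD4creERafl/fl. Crtam, an adhesion receptor that marks CD4 T cells with cytotoxic features (NCBI gene 54698; chromosome 9, 40969691 to 41004628, minus strand), had 1.03 and 0 FPKM in the libraries labelled CD4creERafl/fl, against 6.68 and 7.78 FPKM in the ERafl/fl libraries. In units of the lowest value above 0 it stood at 1 and 0 in the libraries labelled CD4creERafl/fl, against 9.03 and 10 in the ERafl/fl libraries, so it may rest on a single fragment in the first group. Its log2 fold change was -2.53 ± 0.58 (SE, adjusted p = 0.162 in limma), the most negative of the 10.

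Ccl5, the chemokine RANTES, which memory and killer lymphocytes store and release (NCBI gene 20304; chromosome 11, 83525778 to 83530518, minus strand), was the most abundant of the 10 in every library. It had 141 and 166 FPKM in the libraries labelled CD4creERafl/fl, against 260 and 273 FPKM in the ERafl/fl libraries. The groups did not overlap and each was tight, at 153 ± 17.4 FPKM in the libraries labelled CD4creERafl/fl and 266 ± 8.97 FPKM in the ERafl/fl libraries (SD, n = 2 each). Its log2 fold change was -0.80 ± 0.25 (SE), with an adjusted p of 0.237 in limma. Ccl5 made up 66.6% and 50.5% of the summed FPKM of the 10 genes in the libraries labelled CD4creERafl/fl, against 61.3% and 53.0% in the ERafl/fl libraries.

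The lower values of most effector genes stood beside lower T cell markers. The median log2 fold change of the 20 T cell markers was -2.54, with 20 of 20 lower without overlap, as were 25.7% of all genes tested. The fold changes of the 7 effector genes that were lower without overlap ran from -2.53 for Crtam to -0.80 for Ccl5. When the libraries were scaled to the same geometric mean of the T cell markers, the median log2 fold change of all genes moved from -0.07 to 2.03, and 69.8% of all genes were called higher and 0.295% lower. Without regard to a test, 84.3% of all genes were then higher without overlap, 1.47% lower without overlap and 5.20% lower on average, against 3, 0 and 4 of the 10 effector genes. The scaling thus lifts most genes, and nothing particular to the effector genes is read from these counts. On that scale 2 of the 9 tested effector genes were higher at an adjusted p under 0.05 in limma and none lower. Gzma had a log2 fold change of 5.65 ± 0.96 (SE, adjusted p = 0.00572), above the median of all genes, and Ccl5 one of 1.68 ± 0.35 (SE, adjusted p = 0.00852), below it. Gzmb, Prf1, Nkg7 and Ctsw turned sign to 0.23, 1.70, 0.38 and 0.57. Gzmk, Fasl and Crtam stayed below 0 at -0.66, -0.59 and -1.07. All 7 lay below the median of all genes, as they did before the scaling. The scaling moved that median too, so positions against it are no separate result.

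**Figure D2:**
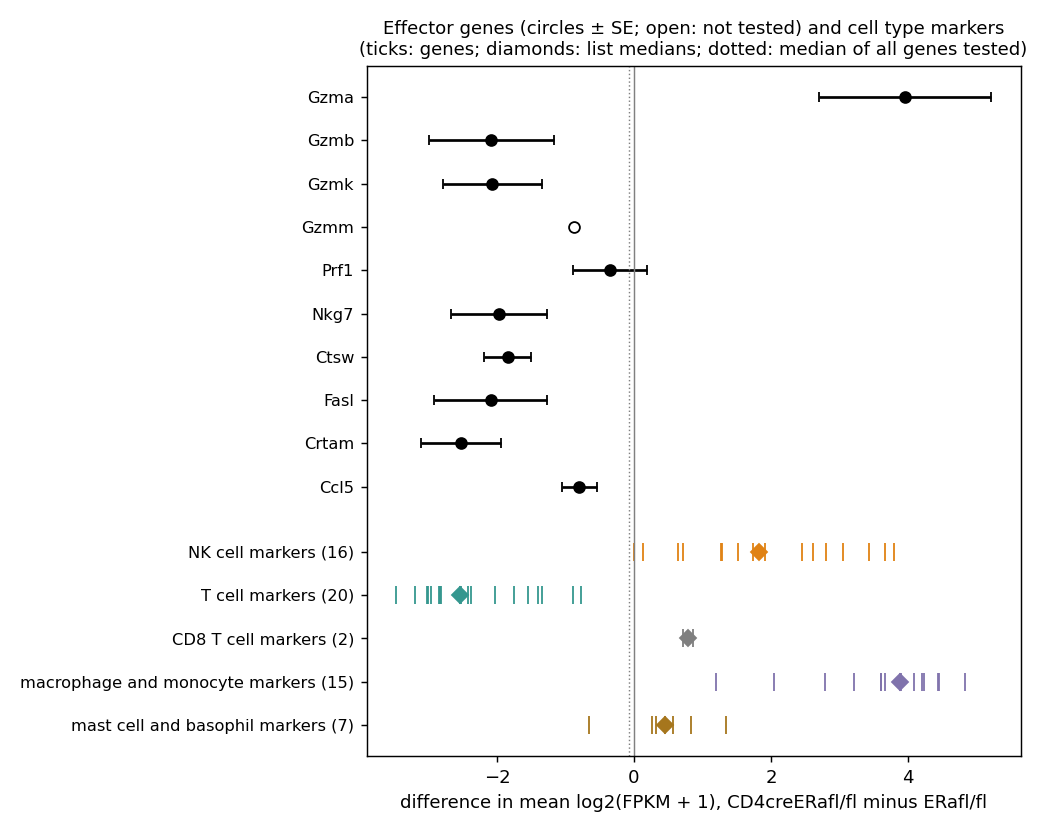
Difference in mean log2(FPKM + 1), libraries labelled CD4creERafl/fl minus ERafl/fl, for the 10 effector genes (circles with SE, open where not tested) and for cell type markers (ticks for genes, diamonds for list medians; the dotted line is the median of all genes tested). Gzma, at 3.96, lay above 0 like the medians of the NK cell markers at 1.82 and the macrophage markers at 3.88, and the other 9 genes lay below 0 like the T cell markers, whose median was -2.54.

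**Figure D3:**
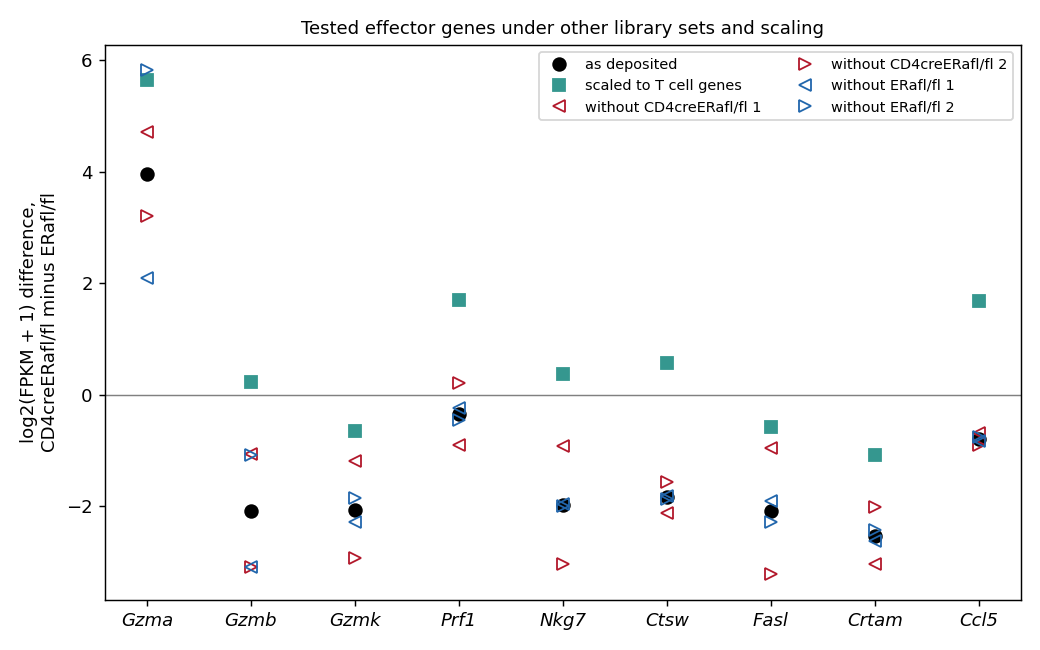
Difference in log2(FPKM + 1), libraries labelled CD4creERafl/fl minus ERafl/fl, of the 9 tested effector genes as deposited (black circles), scaled to T cell genes (green squares) and without each library (triangles). Gzma lay between 2.09 and 5.82 in all of these. Its groups did not overlap, so leaving out a library could not change its sign. Prf1 lay on both sides of 0.

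Genes upstream of the effector programme were mostly lower as well, but as deposited none was called by limma over all genes. Of 13 cytokine receptor and STAT genes, 8 were lower without overlap and 1 higher, with a median log2 fold change of -1.07. Without overlap, 25.7% of all genes tested were lower and 23.2% higher. Il2rb, the shared β chain of the interleukin 2 and interleukin 15 receptors, had 7.33 and 8.56 FPKM in the libraries labelled CD4creERafl/fl, against 33.7 and 26.0 FPKM in the ERafl/fl libraries (adjusted p = 0.144 in limma). Il27ra, the interleukin 27 receptor, had 5.21 and 6.02 FPKM in the libraries labelled CD4creERafl/fl, against 32.1 and 25.8 FPKM in the ERafl/fl libraries (adjusted p = 0.122 in limma). With voom weights, which called 0.719% of the genes tested lower, both fell, at adjusted p of 0.0317 for Il2rb and 0.0356 for Il27ra. Scaled to the T cell markers, whose median was -2.54, their log2 fold changes turned to 0.55 (adjusted p = 0.231) for Il2rb and 0.12 (adjusted p = 0.801) for Il27ra in limma. The median of all genes on that scale was 2.03. Both groups of libraries were tight for these receptors and stood far apart.

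Of 15 transcription factor genes linked to cytotoxic programmes, 9 were lower without overlap and 3 higher, with a median log2 fold change of -0.74. Shares without overlap over all genes tested were 25.7% lower and 23.2% higher. 2 of the 15, Tcf7 and Bcl11b, are also on the T cell marker list. Tcf7, the factor TCF1 of naive and memory T cells, had 22.9 and 27.2 FPKM in the libraries labelled CD4creERafl/fl, against 107 and 52.8 FPKM in the ERafl/fl libraries (adjusted p = 0.192 in limma). Zeb2, a factor of terminally differentiated killer cells that macrophages also make, had 39.5 and 37.9 FPKM in the libraries labelled CD4creERafl/fl, against 1.99 and 6.74 FPKM in the ERafl/fl libraries (adjusted p = 0.128 in limma). Zeb2 shares 653 bases of exon with Zeb2os on the opposite strand, so its value is uncertain. The T-box factors, which drive granzyme and perforin genes, were named after their values were seen. Tbx21 had 3.90 and 4.90 FPKM in the libraries labelled CD4creERafl/fl, against 6.72 and 16.5 FPKM in the ERafl/fl libraries, and Eomes had 16.5 and 17.5 FPKM in the libraries labelled CD4creERafl/fl, against 27.1 and 33.3 FPKM in the ERafl/fl libraries. Their adjusted p values in limma were 0.383 and 0.326. Scaled to the T cell markers, the log2 fold change was 1.02 for Tbx21 (adjusted p = 0.157) and 1.59 for Eomes (adjusted p = 0.0171) in limma. All genes had a median of 2.03 on that scale. Runx3 overlapped between the groups, at 31.7 and 21.3 FPKM in the libraries labelled CD4creERafl/fl, against 26.6 and 25.0 FPKM in the ERafl/fl libraries.

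Genes that store, process and move granule contents leaned the other way. Of 14 such genes, 7 were higher without overlap and 2 lower, with a median log2 fold change of 0.57, and none was called by limma. Without overlap, 23.2% of all genes tested were higher and 25.7% lower. Lamp1, the lysosomal membrane protein that appears at the surface after degranulation, had 108 and 102 FPKM in the libraries labelled CD4creERafl/fl, against 33.3 and 37.6 FPKM in the ERafl/fl libraries (adjusted p = 0.129). It shares 249 bases of exon with Grtp1 on the opposite strand. Ctsc, the cathepsin that activates granzymes by removing their leading dipeptide, had 53.4 and 47.9 FPKM in the libraries labelled CD4creERafl/fl, against 10.6 and 19.99 FPKM in the ERafl/fl libraries (adjusted p = 0.163). Macrophages make both genes, and their markers were higher in the same libraries, with a median log2 fold change of 3.88; their part was not tested. Srgn, the proteoglycan that holds granzymes in the granule, had 159 and 170.1 FPKM in the libraries labelled CD4creERafl/fl, against 170.5 and 200.1 FPKM in the ERafl/fl libraries; it was named after its values were seen.

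The genes of granule release were split. Of 12, 6 were lower without overlap and 4 higher, with a median log2 fold change of -0.47 and none called by limma. Among all genes tested, the shares without overlap were 25.7% lower and 23.2% higher. Sytl2, which docks granules at the membrane together with Rab27a, had 3.39 and 3.04 FPKM in the libraries labelled CD4creERafl/fl, against 13.9 and 19.8 FPKM in the ERafl/fl libraries (adjusted p = 0.144). Snap23, a SNARE protein of many secretory cells, had 20.6 and 28.4 FPKM in the libraries labelled CD4creERafl/fl, against 8.02 and 6.87 FPKM in the ERafl/fl libraries (adjusted p = 0.165), and shares sequence with transcripts of 6 other genes.

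Of 7 inhibitors of granule proteases, 2 were higher and 2 lower without overlap, with a median log2 fold change of 0.12. These counts are near the shares of all genes tested, 23.2% higher and 25.7% lower, so nothing particular to the list is read from them. Cst3, the secreted cystatin C, had 326 and 356 FPKM in the libraries labelled CD4creERafl/fl, against 23.6 and 93.3 FPKM in the ERafl/fl libraries. It was not called by limma (adjusted p = 0.159). With voom weights, which called 1.97% of the genes tested higher, it rose (adjusted p = 0.0147). Serpinb6a, a serpin, had 42.2 and 58.1 FPKM in the libraries labelled CD4creERafl/fl, against 16.6 and 15.1 FPKM in the ERafl/fl libraries (adjusted p = 0.15 in limma), and shares 762 bases of exon with Nqo2 on the opposite strand.

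The death ligands and receptors held 12 genes, Fasl among them, with 4 higher and 3 lower without overlap and a median log2 fold change of -0.01. Of all genes tested, 23.2% were higher and 25.7% lower without overlap, so nothing particular to this list is read from its counts. Tnfrsf1b, a tumour necrosis factor receptor, had 37.8 and 27.3 FPKM in the libraries labelled CD4creERafl/fl, against 10.6 and 8.51 FPKM in the ERafl/fl libraries. It was not called by limma (adjusted p = 0.156). With voom weights, which called 1.97% of the genes tested higher, it rose (adjusted p = 0.0407). Ltb, lymphotoxin β, had 25.3 and 43.8 FPKM in the libraries labelled CD4creERafl/fl, against 92.2 and 92.6 FPKM in the ERafl/fl libraries (adjusted p = 0.176 in limma).

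The partners of Ccl5 and Crtam separated by gene. All 6 were without overlap, 4 higher and 2 lower, with a median log2 fold change of 1.35, and none was called by limma. Without overlap, 23.2% of all genes tested were higher and 25.7% lower. One of the 4, Ackr2, was not tested: its 0.69 and 0.62 FPKM in the libraries labelled CD4creERafl/fl, against 0 in both ERafl/fl libraries, are about 1 fragment each. Ccr3, a receptor of Ccl5 best known from eosinophils, had 26.1 and 19.1 FPKM in the libraries labelled CD4creERafl/fl, against 0 and 0.91 FPKM in the ERafl/fl libraries (adjusted p = 0.0929). Cadm1, the ligand of Crtam, had 9.09 and 12.5 FPKM in the libraries labelled CD4creERafl/fl, against 0 and 1.71 FPKM in the ERafl/fl libraries (adjusted p = 0.159). Crtam and its ligand thus stood in opposite directions in these libraries.

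Of 11 listed relatives of the granzymes, 6 were in the table and 5 were tested, with 0 called. Gzmc, a neighbour of Gzmb in a cluster of granzyme genes, had 4.33 and 3.89 FPKM in the libraries labelled CD4creERafl/fl, against 0 and 1.63 FPKM in the ERafl/fl libraries (adjusted p = 0.318 in limma). The pair Gzmb and Gzmc, with 24181 bases between them, thus differed in the sign of their fold change, as Gzma and Gzmk did. Gzmc rested on an estimated 1.94 and 1.94 fragments in the libraries labelled CD4creERafl/fl, against 0 and 0.96 in the ERafl/fl libraries. For Gzmc and Gzmk that sign thus rests on few fragments. Elane, the elastase of neutrophils, had 11.1 and 9.97 FPKM in the libraries labelled CD4creERafl/fl, against 0 and 8.37 FPKM in the ERafl/fl libraries. These values correspond to an estimated 5.47 and 5.47 fragments, against 0 and 5.45. Prtn3, Ctsg and Mcpt8, proteases of neutrophils, mast cells and basophils, overlapped between the groups. Prtn3, which shares 159 bases of exon with Plppr3 on the opposite strand, had 22.8 and 0 FPKM in the libraries labelled CD4creERafl/fl, against 1.49 and 14.1 FPKM in the ERafl/fl libraries. Ctsg had 0 and 3.60 FPKM in the libraries labelled CD4creERafl/fl, against 2.88 and 3.02 FPKM in the ERafl/fl libraries. Mcpt8 had 2.43 and 4.36 FPKM in the libraries labelled CD4creERafl/fl, against 3.49 and 1.83 FPKM in the ERafl/fl libraries.

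**Figure D4:**
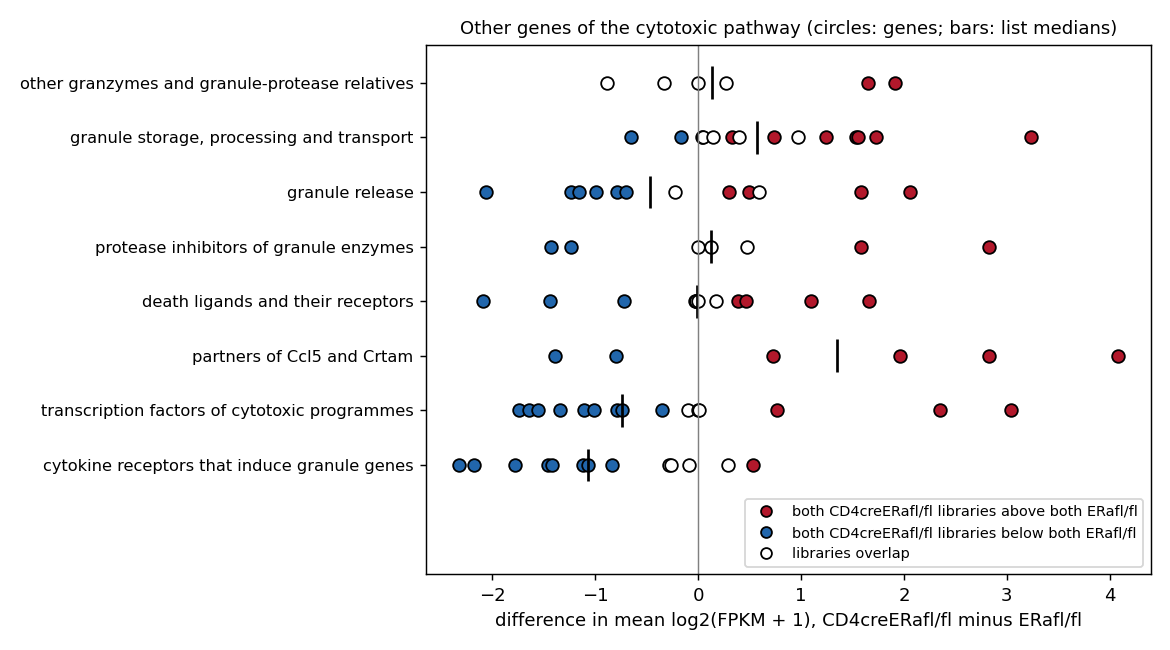
Difference in mean log2(FPKM + 1), libraries labelled CD4creERafl/fl minus ERafl/fl, for other genes of the cytotoxic pathway, 1 circle a gene and a bar at each list's median, coloured by whether the groups' libraries overlap. The cytokine receptor list lay lowest, with a median of -1.07, and the storage and transport list had a median of 0.57.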

How the data were processed

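RNA-seq was analysed from 4 libraries, 2 labelled CD4creERafl/fl and 2 labelled ERafl/fl. The deposited table holds gene-level FPKM computed by the authors. HISAT, Bowtie2, RSEM and mm10 are named, per the submitters' processing notes, with no versions; strand use in counting is not given. Gene positions are from GENCODE M21 (GRCm38). On log2(FPKM + 1), 12896 genes with a mean of at least 1 FPKM entered limma 3.58.1 (R 4.3.3), with a group term and an abundance trend. Tests were two-sided, with Benjamini-Hochberg adjustment. P-values rest on the spread between libraries alone. Depth was estimated from 10348 genes with 1 transcript of over 800 bases: 65.5% to 67.3% of their low values lay no more than 0.1 from whole fragments, and even spread would give 20%. Fragment estimates use annotated lengths, which for several effector genes, among them Crtam, Gzmk, Prf1 and Nkg7, give no whole numbers. The transcripts of the 10 genes had no match of 100 bases at 95% identity to another gene. Scripts were tested on simulated data. Genes and lists were chosen with earlier results of these data known. The rule named all 10 effector genes, Esr1, granzyme relatives above 0, and from each other list the called genes, or the 2 of lowest p where none was called. Alternatives changed the pseudocount, filter, trend, scaling, block, libraries and weights.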

Additional observations from a re-analysis of the deposited data

How the results depend on the processing

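Limma called 7 genes in all. It called 0 with a replicate block, without the trend, without the filter or with 0.1 as pseudocount, 4 at a mean of at least 5 FPKM, 0 without any single library, 9035 when scaled to T cell genes and 202 with voom weights; the cause was not tested. Of the 10 effector genes, 0 were called as deposited, with 7 at an unadjusted p under 0.05, and 2 were called when scaled to T cell genes. That scaling also moved the count of effector genes lower without overlap from 7 to 0, higher without overlap from 1 to 3, and with a lower mean from 9 to 4. On that scale 84.3% of all genes were higher without overlap, so these counts say nothing particular of the effector genes. Leaving out 1 library gave 7 to 8 genes lower without overlap, 1 to 2 higher and 8 to 9 with a lower mean. Genes without overlap in all 4 libraries stay so when any library is removed, so the counts without overlap could not fall. No share over all genes is given for these sets, and nothing is read from the counts. Of 113 fold changes of single effector genes under alternatives, 106 kept their sign and their side of the threshold. With the T cell scaling, 5 turned sign, to 0.23 for Gzmb, 1.70 for Prf1, 0.38 for Nkg7, 0.57 for Ctsw and 1.68 for Ccl5, and Gzma became called. Prf1 also turned sign when 1 library was left out: without library 2 labelled CD4creERafl/fl it was 0.21, and the range over the 4 libraries left out was -0.90 to 0.21. Differences between library 1 and library 2 within each group had a correlation of -0.0016 across genes. That value cannot show whether equal numbers mark paired libraries, and the labels do not say. The replicate block called 0 genes and 0 effector genes, and their adjusted p were 0.182 to 0.774. Depth limits the effector genes other than Ctsw and Ccl5, since each had at least 1 library on under 5 estimated fragments.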
